A study of Homo sapiens with 6 samples.

Results

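Satellites are long tandem arrays that build human centromeres and the heterochromatin beside them. In the repeat count table analysed here, 10 of 15641 entries name such families and were taken by name: ALR/Alpha, HSATI, HSATII, CER, GSAT, GSATII, GSATX, HSAT4, HSAT5 and HSAT6. All 10 were present, and the rule used no measured value, though it was written with earlier results of these data known. Chromatin-associated RNA of the human embryonic stem cell line H9 was sequenced in 3 libraries labelled naive and 3 labelled primed. Naive here means the state kept by RSeT, a commercial medium, and primed means the conventional state. The growth text names RSeT for all 6 libraries, so among the labels only the treatment gives the primed state. Nothing says that the libraries of a group came from separate cultures, so the spread between them may be technical.

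Alpha satellite is the repeat on which the kinetochore assembles, and its arrays carry the centromeric histone CENP-A. The classical satellites and gamma satellites lie mostly in the flanking pericentromeric heterochromatin, which is normally silenced by DNA methylation and histone H3 lysine 9 methylation. RNA copied from satellites is known to stay close to chromatin. Naive human pluripotent cells are known for lower DNA methylation than primed cells.

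Classical satellites 2 and 3 are built from a short unit, so part of their RNA can be counted under simple repeats instead of under HSATII. These entries are shown because the table itself carries their sequence. The unit has 5 bases, which can be written from any of 5 starting points in either orientation, and each of these 10 spellings is an entry. The capitals mark the paired G of the G-rich orientation and the paired C of its complement.
G-rich orientation: GGaat
C-rich orientation: attCC

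The libraries held between 118793 and 17791046 counts. Levels are given as total CPM, counts per 1000000 counts of the library, or as non-alpha CPM, counts per 1000000 counts outside ALR/Alpha. Primed 2 was the shallow one, where 3 counts correspond to 25.4 non-alpha CPM, and its values for the 9 entries besides ALR/Alpha rest on 14 counts or fewer. Ribosomal RNA took between 0.169% and 17.7% of a library. The table names repeats only, so 0 of the gene markers listed for naive, primed or other cells could be looked up. Of repeats listed as naive-like, HERVK-int (12.3-fold) and LTR5_Hs (3.01-fold) were called higher in naive libraries with TMM factors. SVA_D was not called (edgeR adjusted p = 0.837). Of repeats listed for pluripotent cells, HERVH-int (2.20-fold) and LTR7 (1.82-fold) were called higher and LTR7Y was not (edgeR adjusted p = 0.0686). Over all tested entries, 4.94% were called higher and 7.77% lower. In bulk RNA, fewer cells of a type and less RNA per cell cannot be told apart.

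Of the 10 entries, alpha satellite differed most between the states. For each count outside it, ALR/Alpha had 0.338, 0.751 and 0.526 counts in naive 1 to 3, and 0.00221, 0.00629 and 0.00306 in primed 1 to 3. The lowest naive library thus lay far above the highest primed one, and the groups did not overlap. Measured per count outside itself, alpha satellite was on average 140-fold higher in naive libraries, at 0.538 ± 0.206 against 0.00385 ± 0.00215 (SD, n = 3). Measured per total count it was 89.2-fold higher, because its own counts then enlarge the naive totals.

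In edgeR's quasi-likelihood test over 3219 entries, the log2 change of ALR/Alpha was 6.49 ± 0.36 (SE) per total count (Benjamini-Hochberg adjusted p = 3.18e-69). It was 7.14 ± 0.38 per count outside ALR/Alpha (adjusted p = 4.21e-13). With TMM factors, which scale libraries by the bulk of entries, it was 7.32 ± 0.40 (adjusted p = 3.34e-06). The change was a similar multiple of its error per total count and with TMM factors. Each fit estimated its own spread between libraries, so the distance between these p-values is no measure of evidence. For the share of total counts, the exact permutation test gave p = 0.1, the smallest that 3 against 3 allows. Alpha satellite was called higher in all 27 alternative analyses, with log2 changes between 6.21 and 7.68. Across the 3219 tested entries, 4.94% were called higher and 7.77% lower with TMM factors. Shares of all entries given below are likewise of the entries tested in that fit.

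**Figure D1:**
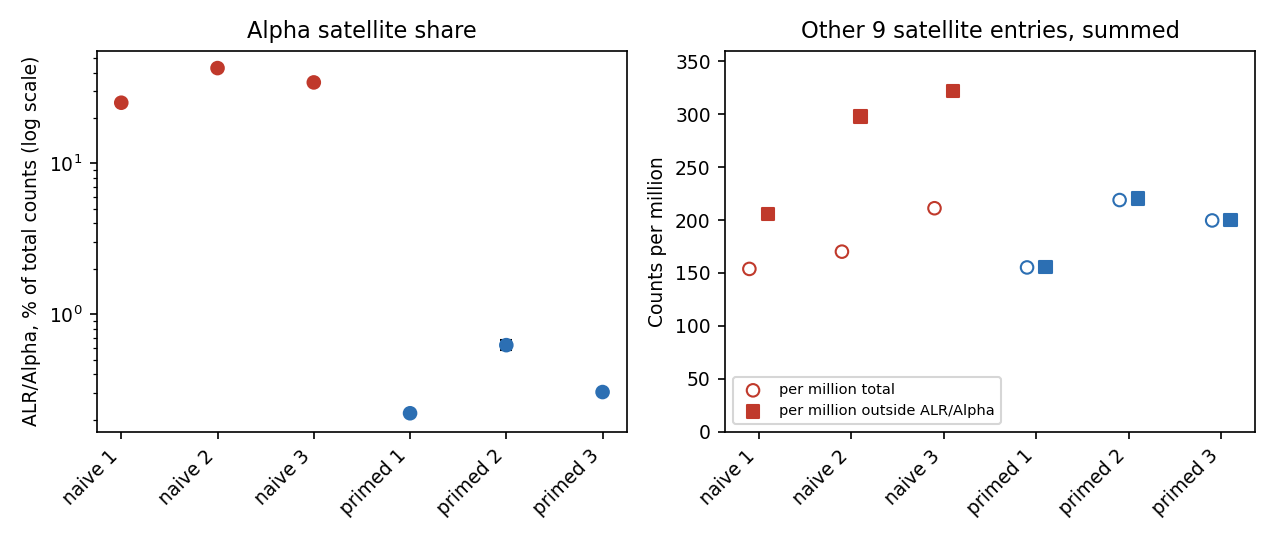
Left, ALR/Alpha as a percent of total counts in each library on a log scale, with 95% Wilson intervals that are mostly smaller than the points; right, the other 9 satellite entries summed, in total CPM (open circles) and non-alpha CPM (squares). The naive libraries (red) sit at 25.3% to 42.9% for alpha satellite and the primed libraries (blue) at 0.221% to 0.625%, whereas the sums of the other entries overlap on either scale.

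The other 9 entries together were a very small part of the RNA. In total CPM their sum was 154, 170 and 211 in naive 1 to 3 and 155, 219 and 199.6 in primed 1 to 3. These ranges overlapped, and the mean difference of -12.9 total CPM gave p = 0.7 in an exact two-sided permutation test. In non-alpha CPM the sum was 206, 298 and 322 in naive 1 to 3 and 156, 220 and 200.2 in primed 1 to 3. Here naive 2 and naive 3 lay above every primed library and naive 1 did not, with a mean difference of 83.2 non-alpha CPM (exact permutation p = 0.2, where 3 against 3 allows no p below 0.1).

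The gap between alpha satellite and the rest can be read within each library, with no scaling. For every count of the other 9 entries, ALR/Alpha had 1643, 2521 and 1632 counts in naive 1 to 3. In primed 1 to 3 it had 14.2, 28.5 and 15.3. The log2 of this ratio averaged 10.9 ± 0.359 over the naive and 4.20 ± 0.552 over the primed libraries (SD, n = 3), a difference of 6.68 with groups that did not overlap (exact permutation p = 0.1, the smallest possible).

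Of these 9 entries, 8 had enough counts to be tested, and HSAT6 did not. With TMM factors, 2 of the 8 rose in naive cells (HSATI and CER), 0 fell and 6 did not pass edgeR's test. Of all entries, 4.94% were called higher and 7.77% lower. At an unadjusted p under 0.05, 4 of the 8 were higher and 0 lower. The largest of these 4 edgeR p-values, 0.0440 for HSAT5, became 0.145 after adjustment. The share of all entries at the unadjusted threshold is not given, so this count has no background. DESeq2 called HSATI and CER higher and 0 lower, where it called 3.67% of entries higher and 5.84% lower. It gave no adjusted p for GSAT and GSATX, so these could not be called. Per count outside ALR/Alpha the same 2 entries were called higher and 0 lower, against 3.39% of all entries called higher and 9.97% lower. Per total count the picture turned: 0 of 8 were called higher by edgeR, 0 also at an unadjusted p under 0.05, and 2 (HSAT4 and GSATII) fell. On that scale 0.870% of all entries were called higher and 32.4% lower, and the median of all entries moved from -0.0046 with TMM factors to -0.61. The median of the 8 satellites was 0.76 with TMM factors and 0.12 per total count, so it stayed above that of all entries by a similar distance. Each fit also estimated its own spread between libraries, so calls per total count and with TMM factors do not differ by scaling alone.

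**Figure D2:**
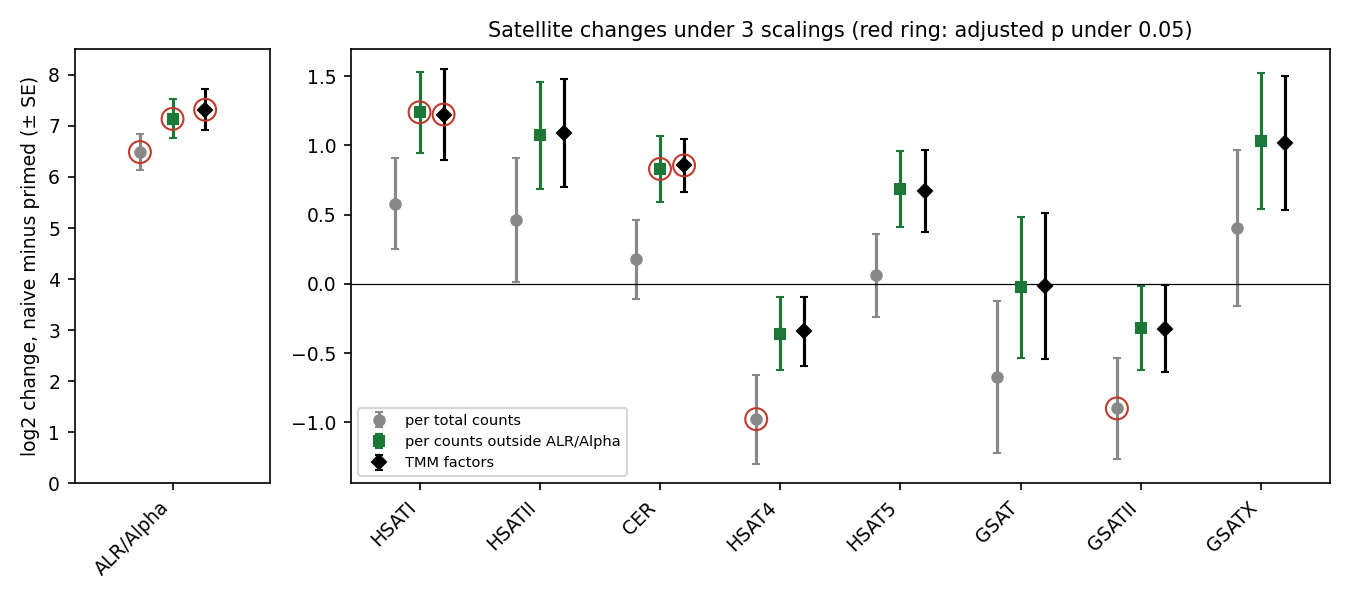
The log2 change of each tested satellite entry, naive minus primed, with its standard error, per total counts (grey circles), per counts outside ALR/Alpha (green squares) and with TMM factors (black diamonds); red rings mark edgeR adjusted p under 0.05. ALR/Alpha has its own axis and is ringed under all 3 scalings, HSATI and CER under 2 of them, and HSAT4 and GSATII only per total counts, below 0.

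HSATI is the AT-rich classical satellite 1. In non-alpha CPM it stood at 30.7, 63.8 and 55.5 in naive 1 to 3 and at 25.1, 33.9 and 16.1 in primed 1 to 3. Naive 2 and naive 3 were clearly the high libraries, while naive 1 lay inside the primed range. The value of primed 2 comes from 4 counts, with a 95% Wilson interval of 13.2 to 87.1. The log2 change was 1.24 ± 0.29 on this scale (SE; edgeR adjusted p = 0.00498) and 1.22 ± 0.33 with TMM factors (adjusted p = 0.0353). Per total count it was 0.58 ± 0.33 and did not pass (edgeR adjusted p = 0.159).

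Whether the HSATI call passed without 1 library differed between the scalings. Scaled to counts outside ALR/Alpha, the call held whichever of the 6 libraries was left out, at log2 changes from 0.95 to 1.52 (highest edgeR adjusted p = 0.0469). With TMM factors it was kept in 3 of 6, and it was lost without naive 2 (0.94, edgeR adjusted p = 0.0794), primed 1 (1.61, 0.0972) or primed 3 (0.89, 0.134). The estimates were close under both scalings. Without primed 1 they were 1.52 ± 0.32 per count outside ALR/Alpha and 1.61 ± 0.39 with TMM factors (SE). Each fit estimated its own spread between libraries, so these calls do not differ by scaling alone.

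HSATII, a diverged form of classical satellite 2 that is known for its RNA in tumours, was rarer. It stood at 11.8, 12.6 and 8.04 non-alpha CPM in naive 1 to 3 and at 3.07, 8.47 and 6.93 in primed 1 to 3. Only naive 3 fell inside the primed range, whose top value is a single count in primed 2. The log2 change with TMM factors was 1.09 ± 0.39 (SE) and did not pass edgeR's test (adjusted p = 0.0845). Without naive 3 it was 1.34 (edgeR adjusted p = 0.0494), and without primed 1 it was 0.69 (adjusted p = 0.469). The estimate for HSATII is thus close to that for HSATI but rests on 302 naive and 79 primed counts, and whether these entries differ was not tested.

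CER, a tandem satellite of centromeric regions, held more counts than any other of the 10 entries apart from ALR/Alpha. Its levels in non-alpha CPM were 89.6, 104.5 and 126 in naive 1 to 3 and 46.7, 119 and 61.0 in primed 1 to 3. The 3 naive libraries lay above primed 1 and primed 3, and primed 2 lay among them with 14 counts and a 95% Wilson interval of 70.6 to 199. The log2 change was 0.86 ± 0.19 with TMM factors (SE; edgeR adjusted p = 0.0229) and 0.83 ± 0.24 per count outside ALR/Alpha (adjusted p = 0.0224). Per total count it was 0.18 ± 0.28 (edgeR adjusted p = 0.630), and there it turned to -0.10 without primed 1. Without primed 2 the TMM value was 0.97 (edgeR adjusted p = 0.0169). The TMM call was lost without primed 1 (0.69, edgeR adjusted p = 0.195) or primed 3 (0.84, 0.0618). Per count outside ALR/Alpha it was kept in 3 of 6 such fits, and lost without naive 3 (0.70, edgeR adjusted p = 0.0627), primed 1 (0.58, 0.253) or primed 3 (0.84, 0.0575).

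HSAT4 was among the entries with an estimate in the opposite direction. In total CPM it stood at 16.5, 17.4 and 20.7 in naive 1 to 3 and at 25.4, 33.7 and 46.8 in primed 1 to 3, so that every primed library was above every naive one. On that scale the log2 change was -0.98 ± 0.32 (SE; edgeR adjusted p = 0.0111), and it passed in 5 of the 6 fits without 1 library, all but the one without primed 3 (-0.56, adjusted p = 0.411). For comparison, 34.3% of all tested entries had naive libraries wholly below the primed ones per total count. In non-alpha CPM the values of 22.1, 30.5 and 31.5 against 25.5, 33.9 and 46.9 overlapped. The log2 change was then -0.36 ± 0.27 (SE; edgeR adjusted p = 0.414), with primed 3 the highest library. Without primed 3 the estimate turned to 0.08 on this scale (edgeR adjusted p = 0.911) and to 0.02 with TMM factors (0.971).

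HSAT5 varied most between naive libraries among the entries with more than 100 naive counts outside ALR/Alpha. It stood at 32.5, 62.9 and 81.6 non-alpha CPM in naive 1 to 3, a coefficient of variation of 42.0% where counting alone gives about 4.80%. The primed libraries were at 33.6, 25.4 and 41.7, so naive 1 lay with them and the other two naive libraries above. The log2 change with TMM factors was 0.67 ± 0.30 (SE) and did not pass edgeR's test (adjusted p = 0.145). Without naive 1 it was 0.99 (edgeR adjusted p = 0.00508). HSAT6 had 1 count in naive 3 and 0 in the other 5 libraries. In primed 3, one of the deeper primed libraries, 0 counts allow up to 0.371 non-alpha CPM (3 counts, counting error only).

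The gamma satellites GSAT, GSATII and GSATX are GC-rich pericentromeric repeats, and none of the 3 was called with TMM factors or per count outside ALR/Alpha. GSATII was the steadiest entry in naive cells, at 15.2, 16.6 and 16.4 non-alpha CPM, a coefficient of variation of 4.58% against about 8.27% from counting alone. Primed 1 and primed 3 were higher, at 18.7 and 23.9, and primed 2 had 0 counts, which allows up to 25.4. Per total count GSATII fell, with a log2 change of -0.90 ± 0.36 (SE; edgeR adjusted p = 0.0415), a call kept in 2 of the 6 fits without 1 library (those without naive 1 or primed 2). Per count outside ALR/Alpha the change was -0.32 ± 0.30 (edgeR adjusted p = 0.555). The fits for these scalings also differed in their estimate of the spread between libraries.

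GSATX pointed the other way at far lower counts. It had 18, 39 and 23 counts in naive 1 to 3 and 12, 0 and 9 in primed 1 to 3, or 2.47, 3.84 and 2.10 against 1.67, 0 and 1.11 non-alpha CPM. These groups did not overlap, as in 11.3% of all tested entries in that direction, and the 0 of primed 2 allows up to 25.4. The log2 change with TMM factors was 1.02 ± 0.49 (SE) and did not pass (edgeR adjusted p = 0.178). GSAT had 9, 31 and 14 counts in naive 1 to 3 and 9, 0 and 21 in primed 1 to 3. Its log2 change of -0.01 ± 0.53 (SE; edgeR adjusted p = 0.990) has an error too wide to show a change of ordinary size in either direction.

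**Figure D3:**
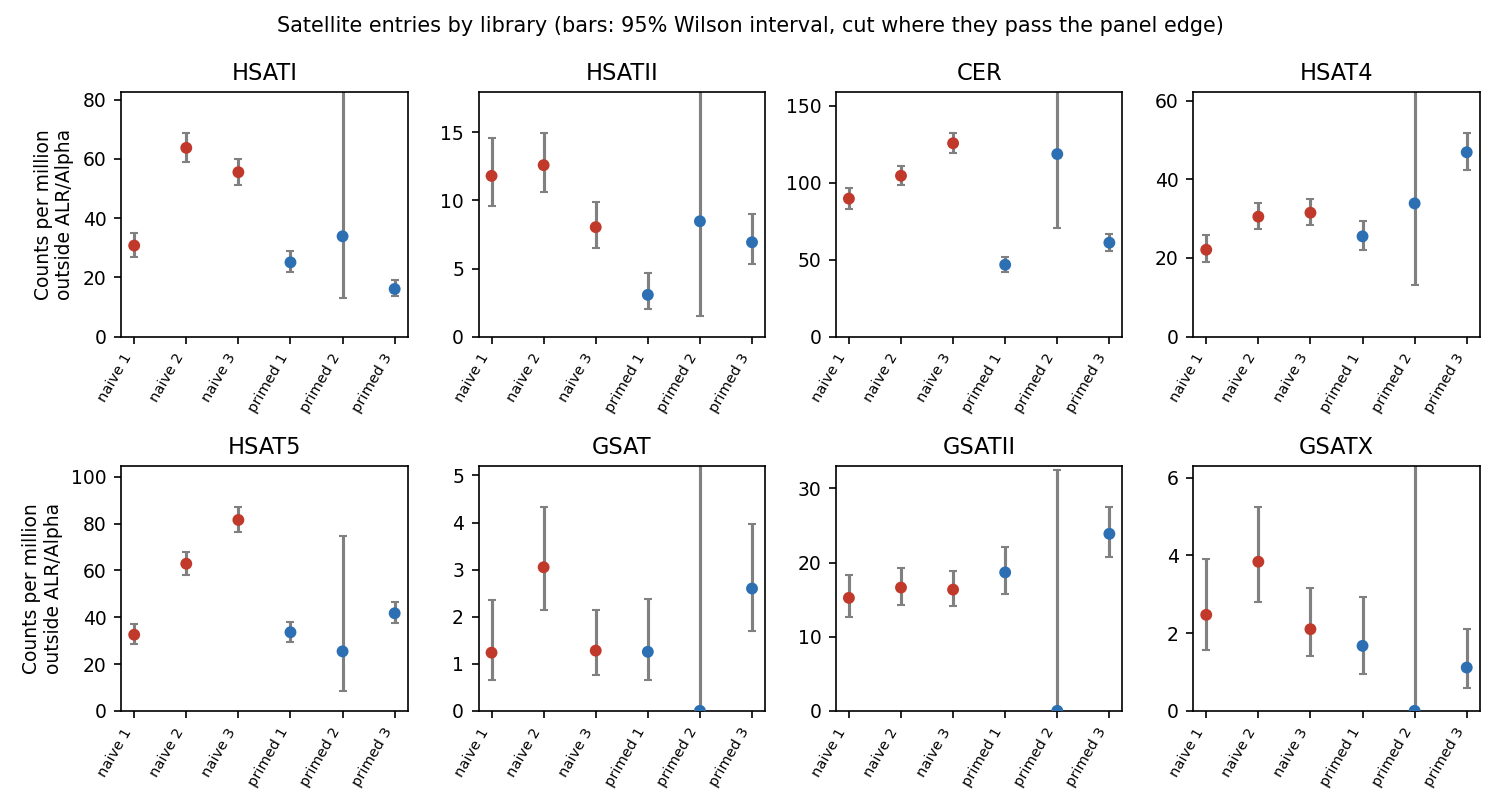
Non-alpha CPM (counts per 1000000 counts outside ALR/Alpha) of 8 satellite entries in each library (red, naive; blue, primed), with 95% Wilson intervals that cover counting error only. Naive 1 lies below the other naive libraries for HSATI, CER, HSAT4 and HSAT5, and primed 2 has the widest intervals in every panel.

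Naive 1 was the low library for most satellites in non-alpha CPM. Of the 9 entries with at least 3 counts in each naive library, 7 were lowest in naive 1 in non-alpha CPM: ALR/Alpha, HSATI, CER, GSAT, GSATII, HSAT4 and HSAT5. HSATII and GSATX were lowest in naive 3. The share of all entries lowest in naive 1 is not given. The naive values of GSATII varied less than counting alone gives, and GSAT had only 9 counts in naive 1 and 14 in naive 3. In total CPM naive 1 stayed lowest of the naive libraries for ALR/Alpha, HSATI, HSAT4 and HSAT5, but was highest for HSATII and GSATII. The top place was shared by naive 2, with 6 entries including alpha satellite, and naive 3, with CER, HSAT4 and HSAT5. Ribosomal RNA took 8.13%, 9.77% and 0.257% of counts outside ALR/Alpha in naive 1 to 3, and its part in these orders was not tested.

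The make-up of the counts of the 9 entries outside alpha satellite was compared as a description, since it is free of the scaling between libraries. Entry lengths are not in the table, so shares of counts do not rank levels per length. CER gave 43.6%, 35.1% and 39.0% of these counts in naive 1 to 3 and 30.0%, 53.8% and 30.5% in primed 1 to 3. HSAT4 gave 10.7%, 10.2% and 9.78% in naive 1 to 3 and 16.4%, 15.4% and 23.4% in primed 1 to 3, the 1 of the 9 entries whose share did not overlap between the states. Its primed 2 share rests on 4 of 26 counts. These shares were not tested, and with 3 libraries against 3 an entry can separate by chance. How often shares of other entries separate is not given. The separation of 1 of 9 entries thus has no background and is not evidence of a difference. The shares of a library add to a whole, so each depends on the other entries, and in non-alpha CPM HSAT4 overlapped. GSATII gave 7.40%, 5.58% and 5.08% in naive 1 to 3, 12.0% and 11.9% in primed 1 and 3, and 0 of 26 counts in primed 2.

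**Figure D4:**
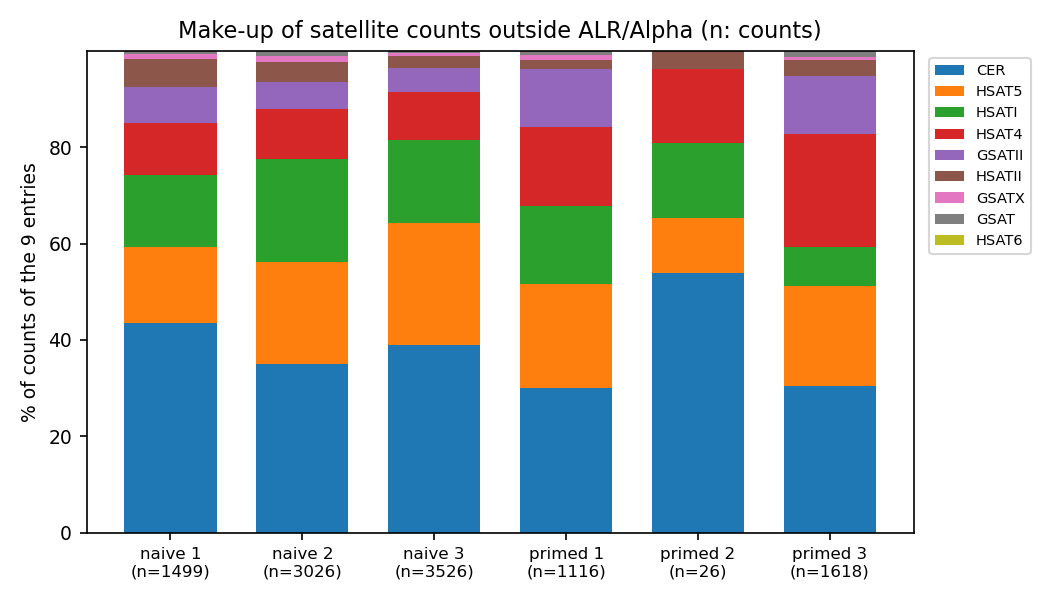
Percent of the counts of the 9 satellite entries outside ALR/Alpha that each entry takes, 1 stacked bar per library with the number of counts beneath. The HSAT4 part is 9.78% to 10.7% in naive and 15.4% to 23.4% in primed libraries, and the bar of primed 2 rests on 26 counts. The shares are descriptive and were not tested.

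The simple repeats with the classical satellite unit were summed by orientation. Summed over the 5 G-rich spellings, they stood at 64.0, 65.2 and 106 non-alpha CPM in naive 1 to 3 and at 28.1, 42.4 and 41.9 in primed 1 to 3. The 5 C-rich spellings stood at 43.1, 52.8 and 63.4 in naive 1 to 3 and at 43.3, 76.2 and 54.3 in primed 1 to 3. On this scale the G-rich sums did not overlap between the states and the C-rich sums did. In total CPM the G-rich sums overlapped, at 47.8, 37.3 and 69.5 in naive against 28.1, 42.1 and 41.8 in primed libraries. The C-rich sums were then 32.2, 30.2 and 41.6 against 43.2, 75.8 and 54.2, and did not overlap. Of single tested entries, 11.3% were wholly higher in naive libraries per count outside ALR/Alpha, and 34.3% wholly lower per total count.

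Within each library, the G-rich spellings had 1.48, 1.23 and 1.67 counts per C-rich count in naive 1 to 3, and 0.650, 0.556 and 0.772 in primed 1 to 3. The ratio was thus above 1 in every naive and below 1 in every primed library, with a difference of 1.15 on the log2 scale (exact permutation p = 0.1, the smallest possible). This comparison was chosen after the values were seen. Much of it came from 1 spelling, (ATTCC)n, which stood at 13.3, 16.4 and 15.4 non-alpha CPM in naive 1 to 3 and at 23.0, 67.8 and 21.2 in primed 1 to 3. With (ATTCC)n left out the ratio was 2.15, 1.79 and 2.21 in naive 1 to 3 and 1.38 and 1.26 in primed 1 and primed 3. Primed 2 then gave 5 G-rich counts and 1 C-rich count, and with it the groups overlapped (exact permutation p = 1). The spelling follows the annotated orientation of each array, and the sources used here do not give the strand setting of the counting, so the ratio does not say which strand was transcribed.

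Singly, (AATGG)n (1.32 ± 0.24, log2, SE; edgeR adjusted p = 0.0121) and (GGAAT)n (1.47 ± 0.44; 0.0485) rose with TMM factors, where 4.94% of all entries were called higher and 7.77% lower. The other 8 spellings did not pass, among them (GAATG)n at 1.33 (edgeR adjusted p = 0.0566), (ATGGA)n at 1.18 (0.0640) and (ATTCC)n at -0.73 (0.113). Per count outside ALR/Alpha 4 spellings were called higher, all in the G-rich orientation, namely these 2 with (GAATG)n and (ATGGA)n, where 3.39% of all entries were called higher and 9.97% lower. Per total count 0 were called higher by edgeR, 0 also at an unadjusted p under 0.05, and (ATTCC)n was called lower (-1.41, edgeR adjusted p = 0.00118), on a scale where 32.4% of all entries were called lower and 0.870% higher.

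**Figure D5:**
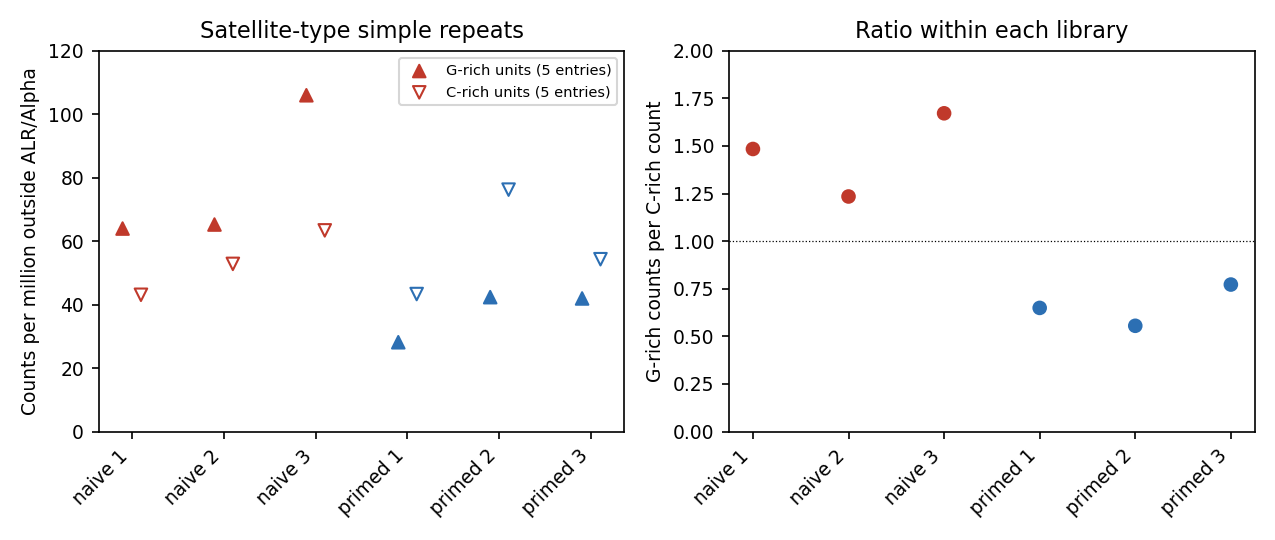
Left, summed non-alpha CPM of the 5 G-rich (filled triangles) and 5 C-rich (open triangles) spellings of the classical satellite unit in each library; right, G-rich counts per C-rich count within each library, with a dotted line at 1. The naive libraries (red) lie at 1.23 to 1.67 and the primed libraries (blue) at 0.556 to 0.772, where primed 2 rests on 5 and 9 counts.

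Among 12 further satellite entries, not sorted here by chromosome region, 10 were tested. With TMM factors 1 of them rose and 0 fell, against 4.94% of all entries called higher and 7.77% lower. Their median log2 change was -0.04, against 0.76 for the 8 tested entries of the chosen list outside alpha satellite. The difference between these medians was not tested. The 1 that rose was ACRO1 of the acrocentric short arms, with 84, 83 and 105 counts in naive 1 to 3 and 5, 0 and 6 in primed 1 to 3. The next by p-value were TAR1, a repeat beside telomeres (-1.04, edgeR adjusted p = 0.122), and REP522 (-0.93, 0.122). Per count outside ALR/Alpha TAR1 and REP522 were called lower (edgeR adjusted p = 0.0230 and 0.0351), as were 9.97% of all entries.

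The 6-library pattern of alpha satellite was closest to that of (GACCCTG)n, HERVK-int and Eulor1 among 1930 entries outside the satellites listed above with a mean of at least 5 total CPM. Likeness was the root mean square difference of log2 total CPM values (prior count 0.5), each centred on its own mean, and came to 1.30, 1.98 and 2.70. (GACCCTG)n had 664, 389 and 585 counts in naive 1 to 3 and 1, 0 and 1 in primed 1 to 3. HERVK-int, the internal part of a young endogenous retrovirus, had 109615, 159950 and 79629 counts against 7805, 150 and 8070. (GACCCTG)n and Eulor1, the latter with 161, 132 and 198 counts against 28, 0 and 40, reach that mean through the naive libraries.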

How the data were processed

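The deposited values are raw counts per repeat entry and library, whole numbers with no scaling by the authors visible in them, and each entry sums all copies of a repeat. Per the submitters' processing notes, Trimmomatic 0.39, STAR 2.7.8a, featureCounts and Subread 2.14.2 were used. The sources used here give no genome build, repeat annotation, strand setting or treatment of reads with several positions, so reads may be shared between near-identical satellite copies, and positions and consensus sequences are not used here. Per the labels' protocols, RNA came from a chromatin extraction and a directional library kit.

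Columns were matched to samples by title and grouped by the treatment label. Counts were tested with edgeR 4.0.16 (R 4.3.3): filterByExpr, TMM factors, naive against primed by the quasi-likelihood F-test, Benjamini-Hochberg adjustment over all 3219 entries tested, threshold 0.05. These entries held 99.7% to 99.9% of each library. The same fit was run with library sizes of total counts and of counts outside ALR/Alpha. Each fit estimated its own spread between libraries, so p-values from different scalings are not strictly comparable. A standard error is the log2 change divided by the square root of F. Shares and ratios were compared by exact two-sided permutation tests (10 in all, smallest p 0.1, so none was adjusted). Alternatives were RLE factors, DESeq2 1.42.0, other filters, ribosomal RNA left out, thinning to 118793 counts, the replicate number as a block and each library left out; leave-one-out fits under both library sizes, the orientation ratio and its version without (ATTCC)n were chosen after seeing the data. The edgeR procedure was also run on simulated counts, where both groups shared the same mean levels apart from changes added to some entries. No added change was as large as that of ALR/Alpha, so the run does not cover a shift of that size. Wilson intervals (95%) and limits from 3 counts cover counting error only: no molecular identifiers were available to tell reads from molecules.

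The satellite entries and lists were chosen with earlier results of these data known. All 10 entries and the 10 spellings of the classical satellite unit may be named, with up to 3 other satellites by smallest p and the 3 entries most like ALR/Alpha. The names BSR and SUBTEL_sat were matched to the list of other satellites after the entry names were seen. Figures were drawn with matplotlib 3.10.9.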

Additional observations from a re-analysis of the deposited data

How the results depend on the processing

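The change of ALR/Alpha kept its direction and passed the threshold in all 27 alternatives run. With 1 library left out its log2 change was 6.94 to 7.68 with TMM factors, 6.82 to 7.67 per count outside ALR/Alpha and 6.21 to 7.02 per total count. The count of other satellites called higher, 2 with TMM factors, was 0 per total count and 4 with no filter on low counts (HSATI, HSATII, CER and HSAT5). Of all entries, 4.94%, 0.870% and 2.59% were called higher in these fits. The count ranged from 0 to 3 with a library left out (0 without primed 1 or primed 3), from 1 to 3 with a library left out per count outside ALR/Alpha, and was 0 in all 6 such fits per total count. The shares of all entries called higher were then 0.230% to 6.81%, 1.09% to 3.95% and 0.230% to 0.801%. Without primed 1 edgeR called 0.230% of all entries higher, so few calls of any kind were left, and 2 of the 8 satellites were then higher and 1 lower at an unadjusted p under 0.05. Without primed 3, 3 were higher and 0 lower in that way. Shares of all entries at the unadjusted threshold are not given, so these counts have no background. The count called lower, 0 with TMM factors, was 2 per total count, and 0 to 2 there with a library left out. Of all entries, 7.77% were called lower with TMM factors and 32.4% per total count. With a library left out, 11.3% to 36.5% were called lower per total count. CER turned to -0.10 per total count without primed 1.

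Of the classical satellite spellings, 2 were called higher with TMM factors and 4 per count outside ALR/Alpha, against 4.94% and 3.39% of all entries. The number was 0 per total count, 1 with ribosomal RNA also left out of the library size, 1 with RLE factors and 1 with DESeq2. Shares of all entries were 0.870%, 3.17%, 4.38% and 3.67% there. With no filter 5 spellings were called higher, among them the C-rich (TTCCA)n, and 0 to 5 with a library left out. Shares of all entries were then 2.59%, and 0.230% to 6.81%. The number called lower was 1 per total count and 0 with TMM factors, against 32.4% and 7.77% of all entries. The summed difference of the other satellites in total CPM ranged from -30.9 to 0.952 with a library left out, above 0 only without primed 2.

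The replicate numbers were not shown to pair libraries across the states: the correlations of same-numbered libraries' deviations were 0.146, 0.0867 and 0.0659, and each library correlated best with its own number, a hint from the data only. With the replicate number as a block, 3 other satellites were called higher (HSATI, CER and HSAT5), and the ALR/Alpha change was 7.28. Of the spellings, 5 were then called higher, among them the C-rich (TTCCA)n, and 1 lower. The block raised the calls over all entries as well, to 8.2% higher and 11.6% lower from 4.94% and 7.77%.

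Depth limited the rare entries most. Thinned to the depth of primed 2, 0 of the 9 other satellites had enough counts to be tested, and ALR/Alpha gave 7.07 (edgeR adjusted p = 0.000322). GSAT, GSATX and HSAT6 had at most 80 counts over the naive libraries.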
